A study of Mus musculus with 16 samples.

Results

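The genes examined were 10 immediate early genes of the SRF-TCF and AP-1 systems: Fos, Fosb, Fosl1, Fosl2, Jun, Junb, Egr1, Egr2, Nr4a1 and Ier2. They were chosen by name, and all 10 were present among the 15805 genes of the count table and passed the filter on low counts. RNA had been sequenced from 16 primary explants of mouse epicardium, the outer cell layer of the heart, of strain C57BL6 grown on a collagen gel. Of these, 8 explants were treated with blebbistatin, an inhibitor of the motor protein myosin II, and 8 were controls without it. The labels give the dose as 20 but disagree on its unit, so no concentration is stated, and the sources used here give neither the length of treatment nor a solvent for the controls. No label says whether the explants of a group came from separate animals, so p-values measure the spread between these explants only.

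Immediate early genes are switched on within minutes of a growth factor, serum or stress signal, without new protein synthesis, and most of their RNAs are short-lived. Serum response factor (SRF) serves them together with the ternary complex factors (TCF), ETS proteins that the kinase ERK phosphorylates. On another set of genes, those of actin and its binding proteins, SRF works instead with cofactors of the MRTF family, which free actin monomers hold in the cytoplasm. The FOS and JUN proteins pair to form AP-1, a transcription factor that binds the promoters and enhancers of matrix, protease and proliferation genes.

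The libraries held 20176386 to 89620195 counts with blebbistatin and 27065611 to 60321622 in controls. Levels are in CPM, read counts scaled to a common library size with TMM factors. Log2 fold changes are those of blebbistatin over control. All 15 listed markers of epicardium were in the table, with summed levels of 2180 to 6780 CPM with blebbistatin and 3130 to 7620 CPM in control explants. The difference in this sum did not pass (exact permutation test, adjusted p = 0.292). By edgeR 0 of 15 passed, and 5 were lower at an unadjusted p under 0.05, 33.3% beside 5.98% of all tested genes. DESeq2 called 3 lower, beside 1.44% of all genes. The median log2 fold change was -0.29, against 0.04 over all genes, with 13 of 15 below 0. Of the markers of other cells, the table held 13 of 14 for macrophages, 4 of 10 for endothelium, 10 of 12 for fibroblasts and mural cells, 1 of 7 for red cells and 2 of 7 for nerve and glia. Macrophage markers summed to 286 to 3670 CPM with blebbistatin and 317 to 4230 CPM in control explants, and fibroblast and mural markers to 2870 to 7790 CPM with blebbistatin and 5700 to 8220 CPM in control explants. The endothelial sums were 17.5 to 50.4 CPM with blebbistatin and 31.2 to 58.9 CPM in control explants, and those of red cells, nerve and glia reached at most 8.41 CPM. The difference between groups did not pass for any of these sums (exact permutation test, adjusted p over 11 library measures between 0.292 and 0.878). No gene of these 5 lists passed edgeR. At an unadjusted p under 0.05, 2 were higher and 2 lower, all 4 among the 10 fibroblast and mural genes. Over all genes 6.21% were higher and 5.98% lower. DESeq2 called 1 higher in that list, beside 1.19% of all genes. Of 12 macrophage markers tested, 11 had a log2 fold change above 0 and 1 below, with a median of 0.44. For fibroblast and mural markers the median was -0.40, with 6 of 10 below 0. Cardiomyocyte markers, of which 6 of 12 were in the table, summed to 712 to 1170 CPM with blebbistatin and 441 to 944 CPM in control explants (adjusted p = 0.0179), and the mitochondrial share of counts was 21.4 ± 3.21% with blebbistatin and 16.4 ± 1.70% in controls (SD, n = 8 each, exact permutation test, adjusted p = 0.0179). The cardiomyocyte sum averaged 990 CPM with blebbistatin and 653 CPM in controls, of which Tnnt2 alone made up 853 and 540 CPM. For Tnnt2 the log2 fold change was 0.66 (edgeR adjusted p = 0.124, DESeq2 adjusted p = 0.0368), and edgeR called it without control 6 (0.0416). Of 5 cardiomyocyte markers tested, 4 had a log2 fold change above 0 and 1 below. Ttn rose by edgeR, and 3 were higher by DESeq2, beside 0.255% and 1.19% of all genes. Myh6, Myh7 and Tnni3 were not analysed here. The call of Ttn ended as most single libraries were left out (adjusted p up to 0.101). In bulk RNA, fewer cells of a type and less RNA per cell cannot be told apart. The part of these measures in the results below was not tested.

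Of the 10 genes, 0 passed edgeR at an adjusted p under 0.05, the threshold used throughout, where 95 of 15675 tested genes (0.606%) did (0.255% higher and 0.351% lower). At an unadjusted p under 0.05, Egr1 was higher with blebbistatin and Nr4a1, Fosl2 and Jun were lower, 4 of 10 beside 12.2% of all tested genes (6.21% higher and 5.98% lower). Egr1 and Nr4a1 missed the threshold narrowly and in opposite directions. DESeq2 called both of them, 2 of 10 beside 2.63% of all genes (1.19% higher and 1.44% lower), and limma voom called 0 of 10, beside 0.721% (0.217% higher and 0.504% lower). The log2 fold changes of the 10 ran from -1.28 for Fosb to 0.75 for Egr1 with a median of -0.20, against 0.04 over all tested genes, and 6 of 10 were below 0, beside 45.9% of all genes. The CPM ranges of the groups overlapped for all 10, while they did not overlap for 38 genes, or 0.242% of those tested.

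**Figure D1:**
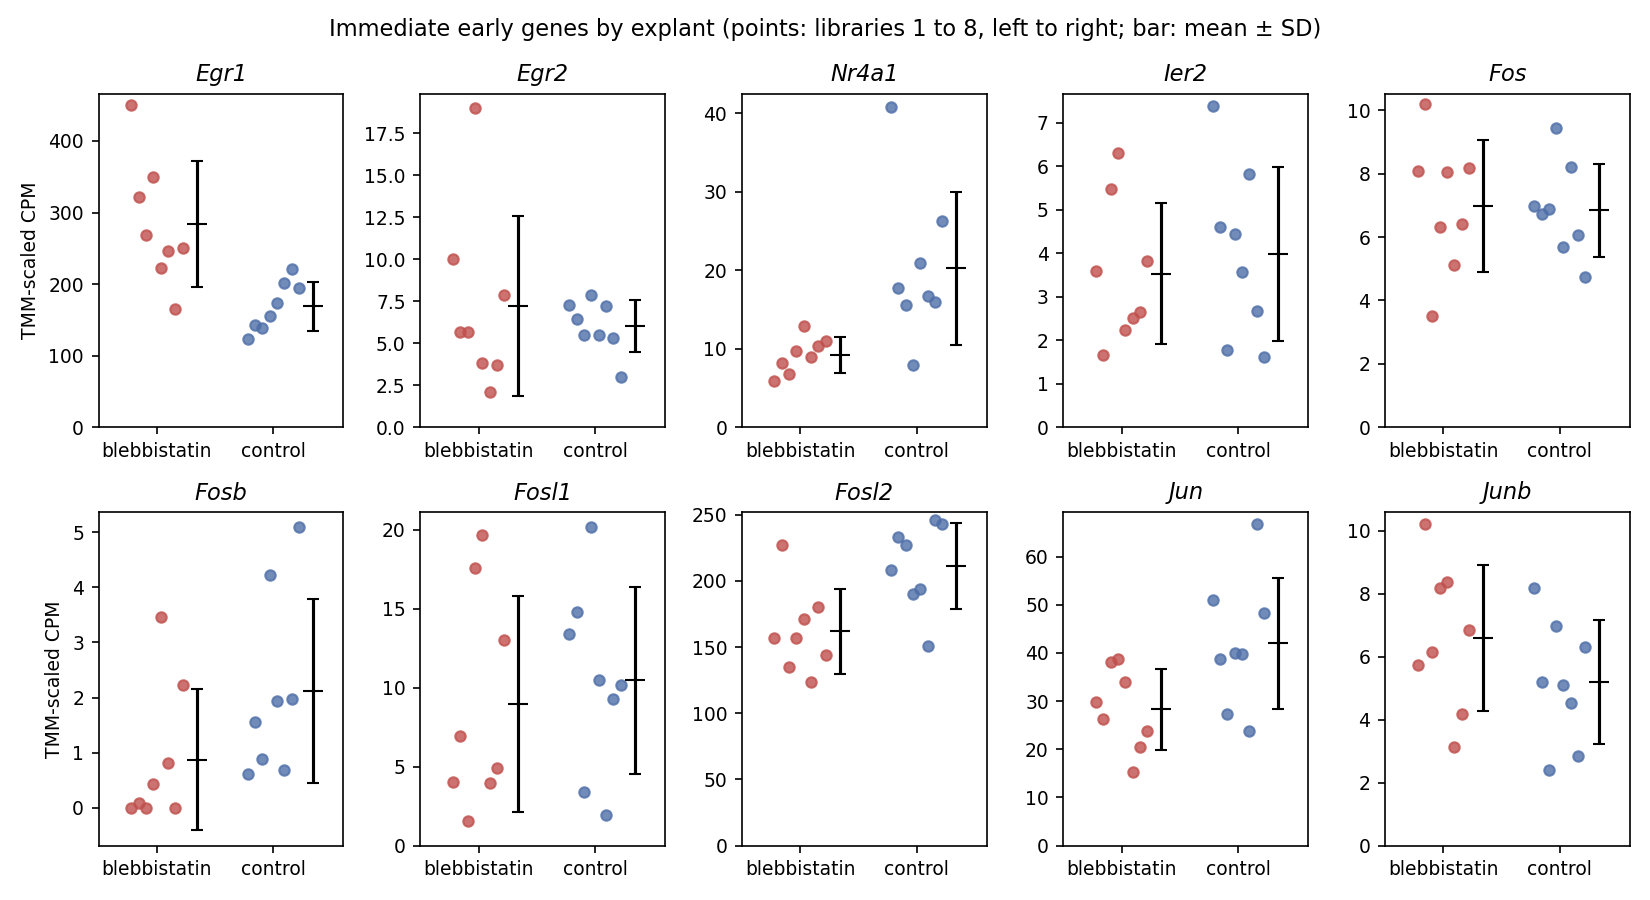
TMM-scaled CPM of the 10 immediate early genes in each explant, with a scale of its own for each gene, points in the order of library 1 to 8 in the blebbistatin group (left) and the control group (right), and a bar for the mean ± SD of 8 libraries. Egr1 lies above the highest control of 221 CPM in 7 of 8 blebbistatin libraries, and Nr4a1 lies above the highest blebbistatin library of 12.9 CPM in 7 of 8 controls.

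The zinc finger factors were taken first. Egr1, an early growth response factor that binds GC-rich promoters (ENSMUSG00000038418, chromosome 18, 34859823 to 34864984, plus strand, GRCm38), stood at 165, 259 and 450 CPM (lowest, median and highest) with blebbistatin and at 123, 165 and 221 CPM in control explants. Every blebbistatin library lay above the control median, and 1 of 8, library 7, lay within the range of the controls. The means were 284 ± 87.9 CPM with blebbistatin and 169 ± 34.5 CPM in control explants (SD, n = 8 each), which gave a log2 fold change of 0.75 (SE 0.17, edgeR adjusted p = 0.0524, DESeq2 adjusted p = 0.00501). The edgeR call was gained without blebbistatin 5 (adjusted p = 0.0357), blebbistatin 7 (0.0254) or control 6 (0.0382), and over all alternatives the adjusted p ran from 0.00501 to 0.24.

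Egr2, its paralog, known for its role in Schwann cells and hindbrain patterning (ENSMUSG00000037868, chromosome 10, 67535475 to 67542188, plus strand), had levels that spread widely with blebbistatin. They were 2.08, 5.66 and 19.0 CPM with blebbistatin and 2.98, 5.96 and 7.86 CPM in control explants, so that the blebbistatin explants ranged past the controls on both sides. Its highest value was that of blebbistatin 4. The log2 fold change was 0.27 (SE 0.36, edgeR adjusted p = 0.813) and without blebbistatin 4 it was -0.11 (edgeR adjusted p = 0.915).

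Nab2, a corepressor that binds EGR proteins and is known as a gene they induce, rose with blebbistatin, to 86.1 ± 17.2 CPM against 50.2 ± 10.5 CPM in control explants (log2 fold change 0.78, SE 0.16, edgeR adjusted p = 0.0248). In 7 of 8 blebbistatin libraries it lay above the control median, the exception being blebbistatin 7 at 46.7 CPM. Whether Nab2 varied with Egr1 between explants was not tested. The call of Nab2 ended without blebbistatin 6 (adjusted p = 0.0523), blebbistatin 8 (0.0543), control 4 (0.0634) or control 8 (0.0593), without blebbistatin 1 and 8 together (0.0804) and with a replicate block (0.0556).

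Nr4a1, an orphan nuclear receptor also called Nur77 (ENSMUSG00000023034, chromosome 15, 101254269 to 101274795, plus strand), stood at 5.94, 9.29 and 12.9 CPM with blebbistatin and at 7.89, 17.2 and 40.8 CPM in control explants. All 8 blebbistatin libraries lay below the control median, and 1 control, number 4, lay within their range. The means were 9.21 ± 2.27 CPM with blebbistatin and 20.2 ± 9.78 CPM in control explants, a log2 fold change of -1.13 (SE 0.26, edgeR adjusted p = 0.0527, DESeq2 adjusted p = 0.00254). The edgeR call was gained without blebbistatin 5 (adjusted p = 0.0361), control 4 (0.0239) or control 6 (0.0433), and over all alternatives the adjusted p ran from 0.00254 to 0.253.

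The paralogs of Nr4a1 were named after their values had been seen. Nr4a3 had 2.93, 6.57 and 12.1 CPM with blebbistatin and 9.36, 13.2 and 17.2 CPM in control explants, with every blebbistatin library below the control median (log2 fold change -0.99, SE 0.26, edgeR adjusted p = 0.0792, DESeq2 adjusted p = 0.00999, limma voom adjusted p = 0.0352). Its edgeR call was gained without blebbistatin 7 (adjusted p = 0.0416). Nr4a2 had 2.54, 3.47 and 10.4 CPM with blebbistatin and 1.43, 3.62 and 9.05 CPM in control explants (0.25, SE 0.39, edgeR adjusted p = 0.837), so that 4 of 8 blebbistatin libraries lay above its control median. Whether the 3 paralogs differed from each other was not tested.

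Ier2, a small nuclear protein (ENSMUSG00000053560, chromosome 8, 84661331 to 84662852, minus strand), had 1.67, 3.12 and 6.31 CPM with blebbistatin and 1.61, 4.0 and 7.38 CPM in control explants. The groups overlapped over most of their range (log2 fold change -0.17, SE 0.36, edgeR adjusted p = 0.882, 95% interval from -0.88 to 0.53).

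Promoter windows of the genes were searched for the sites through which they are known to be induced. RefSeq windows of 300 bases on build GRCm38.p6 ran from 250 bases before the start to 50 after. Those of Fos, Fosb, Fosl2, Jun, Junb, Egr2 and Nr4a1 were searched, 11 windows in all because Egr2 has 5 starts. Egr1, Fosl1 and Ier2 were not searched, so the counts below leave them out. The motifs were the CArG box of SRF, TGANTCA for AP-1, TGACG for CREB, CCGGAA for ETS proteins and GCGGGGGCG for EGR proteins, each on both strands; on opposite strands CCGGAA can overlap itself. The CArG box was found in 1 of 7 genes, in 4 of the 5 windows of Egr2, and in 1.63% of all 32851 windows of the table. The Egr2 windows from 67537619, 67537620 and 67537680 overlap and hold the same box. Here and below, these genes are counted by gene and the table by window, so the shares are not like for like. The sequence GCGGGGGCG was found in 3 of 7 genes, namely Fosb, Fosl2 and Nr4a1, and in 2.91% of all windows. TGACG was found in 5 of 7 genes (Fos, Fosb, Junb, Egr2 and Nr4a1) and 20.8% of all windows, CCGGAA in Egr2 and Nr4a1 and 14.9% of all windows, and TGANTCA in 0 of 7 genes and 7.81% of all windows. The serum response element of Fos is known to lie farther upstream than this window.

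Shown here are a pair of Egr2 windows with their different CArG boxes, CCTTTTTTGG and CCATATATGG, each 72 bases before its start. The Fos window follows with its 2 TGACG sites, 129 and 66 bases before the start. Last is the window of Nr4a1, the gene with the lowest p of those searched. All windows shown lie on the plus strand, read 5′ to 3′, with every match to a motif in capitals.
Egr2, chr10:67537316-67537615: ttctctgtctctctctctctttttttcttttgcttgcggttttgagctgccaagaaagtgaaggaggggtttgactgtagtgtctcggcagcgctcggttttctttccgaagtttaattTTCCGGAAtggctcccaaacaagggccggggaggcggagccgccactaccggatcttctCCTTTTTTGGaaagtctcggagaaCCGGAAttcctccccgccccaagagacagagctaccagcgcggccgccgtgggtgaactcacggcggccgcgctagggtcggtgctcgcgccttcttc
Egr2, chr10:67537619-67537918: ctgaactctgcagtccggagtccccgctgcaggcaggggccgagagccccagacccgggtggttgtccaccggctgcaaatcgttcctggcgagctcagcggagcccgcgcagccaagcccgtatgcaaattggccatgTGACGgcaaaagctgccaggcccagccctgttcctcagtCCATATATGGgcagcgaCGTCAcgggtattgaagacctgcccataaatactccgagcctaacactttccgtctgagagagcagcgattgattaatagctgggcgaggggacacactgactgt
Fos, chr12:85473640-85473939: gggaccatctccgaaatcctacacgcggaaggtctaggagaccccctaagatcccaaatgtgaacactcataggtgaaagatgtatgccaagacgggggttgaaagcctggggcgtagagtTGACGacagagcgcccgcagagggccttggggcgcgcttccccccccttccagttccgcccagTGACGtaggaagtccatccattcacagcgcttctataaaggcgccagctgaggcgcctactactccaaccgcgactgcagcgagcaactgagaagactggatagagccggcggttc
Nr4a1, chr15:101266596-101266895: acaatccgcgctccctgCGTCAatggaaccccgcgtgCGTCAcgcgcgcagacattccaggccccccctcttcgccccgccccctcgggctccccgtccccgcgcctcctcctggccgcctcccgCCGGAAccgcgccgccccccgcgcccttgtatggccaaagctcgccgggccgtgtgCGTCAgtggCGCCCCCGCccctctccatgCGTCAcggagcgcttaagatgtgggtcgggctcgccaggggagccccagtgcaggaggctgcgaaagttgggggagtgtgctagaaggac
In the Nr4a1 window TGACG matched 4 times on the minus strand, at 233, 213, 69 and 40 bases before the start, with CCGGAA at 125 and the GCGGGGGCG complement at 60. Egr2, with CArG boxes in 4 windows, and Fos, with none in its window, had log2 fold changes of 0.27 and 0.03. These matches describe the letters only.

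Among the FOS genes, Fos itself had a fold change near 0, and of the 4 Fosl2 alone had an unadjusted p under 0.05. Fos, the founding member of the family (ENSMUSG00000021250, chromosome 12, 85473890 to 85477273, plus strand), stood at 3.51, 7.24 and 10.2 CPM with blebbistatin and at 4.73, 6.81 and 9.46 CPM in control explants. The blebbistatin libraries extended past the controls at both ends, by 1 library each. The log2 fold change was 0.03 (SE 0.23, edgeR adjusted p = 0.971), with a 95% interval from -0.43 to 0.49.

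Fosl2, also called Fra-2, an AP-1 subunit known in fibrosis and bone (ENSMUSG00000029135, chromosome 5, 32135801 to 32157842, plus strand), stood at 124, 157 and 227 CPM with blebbistatin and at 151, 218 and 246 CPM in control explants. Of 8 blebbistatin libraries 7 lay below the control median, and 3 lay below the lowest control. Its mean of 162 ± 32 CPM with blebbistatin against 212 ± 32.4 CPM in control explants gave a log2 fold change of -0.39 (SE 0.13, unadjusted p = 0.00664, edgeR adjusted p = 0.184, DESeq2 adjusted p = 0.105).

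Fosl1, also called Fra-1, which lacks the activation domain of Fos (ENSMUSG00000024912, chromosome 19, 5447547 to 5455946, plus strand), varied more between explants than between groups. It had 1.56, 5.95 and 19.7 CPM with blebbistatin and 1.94, 10.3 and 20.2 CPM in control explants, a spread between the lowest and the highest explant of 12.7-fold with blebbistatin and 10.4-fold in controls (log2 fold change -0.22, SE 0.49, edgeR adjusted p = 0.887). As single libraries were left out the fold ran from -0.50 without blebbistatin 5 to -0.03 without control 4, and no alternative called Fosl1. Its exons overlap Ccdc85b on the other strand, and the sources used here do not say whether the counting used strand, so reads of the pair cannot be told apart.

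Fosb, a subunit best known from the brain (ENSMUSG00000003545, chromosome 7, 19302696 to 19310051, minus strand), was the lowest of the genes. It had 0 counts in 3 blebbistatin libraries, which allows up to 0.0641 CPM in number 1, 0.0543 in number 3 and 0.0945 in number 7, while blebbistatin 5 held 127 counts (3.46 CPM) and no control was at 0. The limits take 3 counts as the most that a count of 0 allows and cover counting error only. The median was 0.260 CPM with blebbistatin and 1.75 CPM in control explants, and 5 of 8 blebbistatin libraries lay below the lowest control of 0.619 CPM. With this spread the difference did not pass (log2 fold change -1.28, SE 0.98, edgeR adjusted p = 0.651), and the fitted fold rests in part on the libraries at 0. The fold was -2.07 without blebbistatin 5 (edgeR adjusted p = 0.414) and -3.66 in limma voom (adjusted p = 0.13), and no alternative called Fosb.

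Of the JUN genes, Jun was lower at an unadjusted p under 0.05 and Junb was not. Jun, the central subunit of AP-1 (ENSMUSG00000052684, chromosome 4, 95049034 to 95052222, minus strand), stood at 15.3, 28.0 and 38.8 CPM with blebbistatin and at 23.8, 39.9 and 66.7 CPM in control explants. All 8 blebbistatin libraries lay below the control median, and 5 of 8 controls lay above the highest blebbistatin library. The means of 28.3 ± 8.43 CPM with blebbistatin and 42.0 ± 13.6 CPM in control explants gave a log2 fold change of -0.57 (SE 0.22, unadjusted p = 0.0168, edgeR adjusted p = 0.27, DESeq2 adjusted p = 0.157). Its exon overlaps the antisense RNA gene Junos, and again the reads cannot be told apart.

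Junb, a subunit that often opposes Jun (ENSMUSG00000052837, chromosome 8, 84974484 to 84978718, minus strand), had 3.12, 6.50 and 10.2 CPM with blebbistatin and 2.41, 5.13 and 8.17 CPM in control explants. Of 8 blebbistatin libraries 6 lay above the control median (log2 fold change 0.35, SE 0.29, edgeR adjusted p = 0.685). Its exons overlap those of Prdx2 on the other strand, a peroxiredoxin gene at 101 ± 25.6 CPM with blebbistatin and 104 ± 17.6 CPM in control explants (-0.04, SE 0.15, edgeR adjusted p = 0.942). The value of Junb is thus uncertain by any reads shared with Prdx2. Jund, the remaining JUN gene, named after its values had been seen, had a log2 fold change of 0.10 (SE 0.48, edgeR adjusted p = 0.949).

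**Figure D2:**
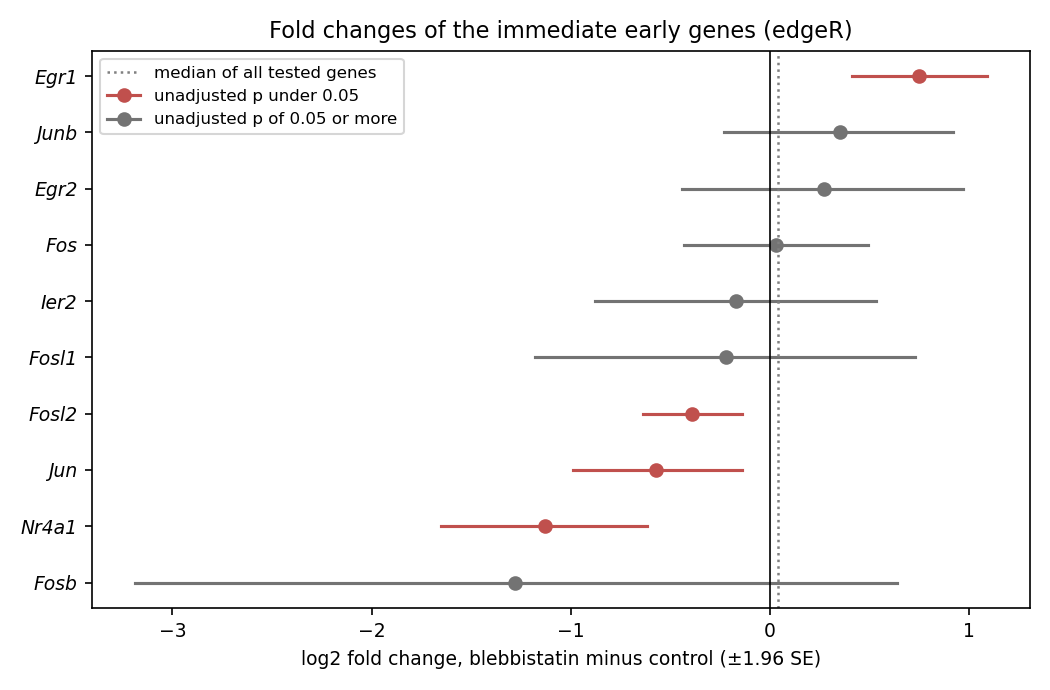
Log2 fold change of each gene, blebbistatin minus control, from edgeR (points) with 95% intervals (lines), red where the unadjusted p is under 0.05 and grey where it is not; the dotted line is the median of all tested genes at 0.04. Egr1 is at 0.75, Fosl2, Jun and Nr4a1 are at -0.39, -0.57 and -1.13, and Fosb has the widest interval, from -3.19 to 0.64.

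Levels of different genes were compared per kilobase of exon, as CPM per kb. With blebbistatin the means were 63.4 ± 19.6 for Egr1, 16.7 ± 3.31 for Fosl2, 8.89 ± 2.64 for Jun, 4.41 ± 3.37 for Fosl1, 2.97 ± 0.892 for Fos, 2.87 ± 1.01 for Junb, 2.63 ± 0.648 for Nr4a1, 2.32 ± 1.07 for Ier2, 2.13 ± 1.58 for Egr2 and 0.140 ± 0.206 CPM per kb for Fosb (SD, n = 8). In controls the order was Egr1 (37.7 ± 7.69), Fosl2 (21.9 ± 3.34), Jun (13.2 ± 4.26), Nr4a1 (5.76 ± 2.79), Fosl1 (5.15 ± 2.91), Fos (2.91 ± 0.625), Ier2 (2.61 ± 1.31), Junb (2.25 ± 0.851), Egr2 (1.77 ± 0.456) and Fosb (0.340 ± 0.268 CPM per kb, SD, n = 8). Egr1 exceeded Fosl2, Fosl2 exceeded Jun and Jun exceeded Nr4a1 in all 8 controls and in all 8 blebbistatin explants, and Egr2 exceeded Fosb in all 16. From Nr4a1 down to Egr2, the neighbours in the order did not differ beyond their spread, the first of each pair being the higher in 3 to 6 of 8 blebbistatin explants and in 5 or 6 of 8 controls. By its control level Egr1 lay at the 94.6th percentile of the 15537 tested genes with a length, Fosl2 at 89.6 and Fos at 46.6. The lengths join all annotated exons, which lowers the values of genes with long or little-used exons such as Fosl2 (9680 bases) and Fosb (6243 bases).

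Fosl2 made up most of the RNA of the FOS family on this scale. Its share was 70.5 ± 10.9% with blebbistatin and 72.8 ± 7.76% in controls (SD, n = 8 each). Fosl1 held 16.8 ± 10.7% with blebbistatin and 16.2 ± 8.09% in controls, Fos 12.2 ± 2.29% with blebbistatin and 9.99 ± 3.41% in controls, and Fosb 0.530 ± 0.711% with blebbistatin and 1.08 ± 0.766% in controls. Of the JUN family, Jun held 53.2 ± 13.6% with blebbistatin and 67.1 ± 8.31% in controls. Jund held 29.9 ± 16% with blebbistatin and 20.8 ± 10.1% in controls, and Junb 16.9 ± 4.87% with blebbistatin and 12.1 ± 4.49% in controls. These shares overlapped between the groups and are given with no test.

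The genes also differed in how much they varied between explants of 1 group. The SD of log2 CPM within groups was 0.25 for Fosl2, 0.37 for Egr1 and 0.40 for Fos, below the median of 0.52 over all tested genes. It was 1.18 for Fosl1 and 1.95 for Fosb, above 86.3% and 97.5% of all tested genes. Fosb is also the gene of lowest counts. The remaining genes lay between, from 0.47 for Jun to 0.75 for Egr2. Nr4a1 had a coefficient of variation of 24.7% with blebbistatin and 48.3% in controls, and Egr2 one of 74.4% with blebbistatin and 25.8% in controls, without a test of either difference.

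The explants did not share 1 ranking over the genes. Blebbistatin 1 held the highest Egr1 and the lowest Nr4a1 of its group, and control 1 the lowest Egr1 and the highest Nr4a1. Blebbistatin 4 was highest for Egr2, Jun and Ier2, and blebbistatin 6 lowest for Egr2, Fosl2, Jun and Junb. Fos was tested against each of the other 9 genes over 16 libraries, after the mean of each group had been subtracted. No relation passed: Pearson's r ran from -0.22 with Jun to 0.36 with Fosl1 and Spearman's rho from -0.29 with Jun to 0.50 with Egr2 (permutation test, adjusted p over 9 relations from 0.739 to 0.841 for r and from 0.601 to 0.995 for rho). Within the 8 blebbistatin explants no relation passed, and Fos and Egr2 had r = 0.20 (exact permutation p = 0.639). Within the 8 controls, Fos and Egr2 alone passed by r, with r = 0.88 (exact permutation p = 0.00161, adjusted 0.0145) but rho = 0.86 (exact permutation p = 0.0107, adjusted 0.0964). Without controls 8 and 4, the farthest from the median of Fos, r was 0.75 (exact permutation p = 0.106) and rho 0.66 (exact permutation p = 0.175, n = 6), so the relation no longer passed with 6 explants. The difference between the groups was not tested.

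**Figure D3:**
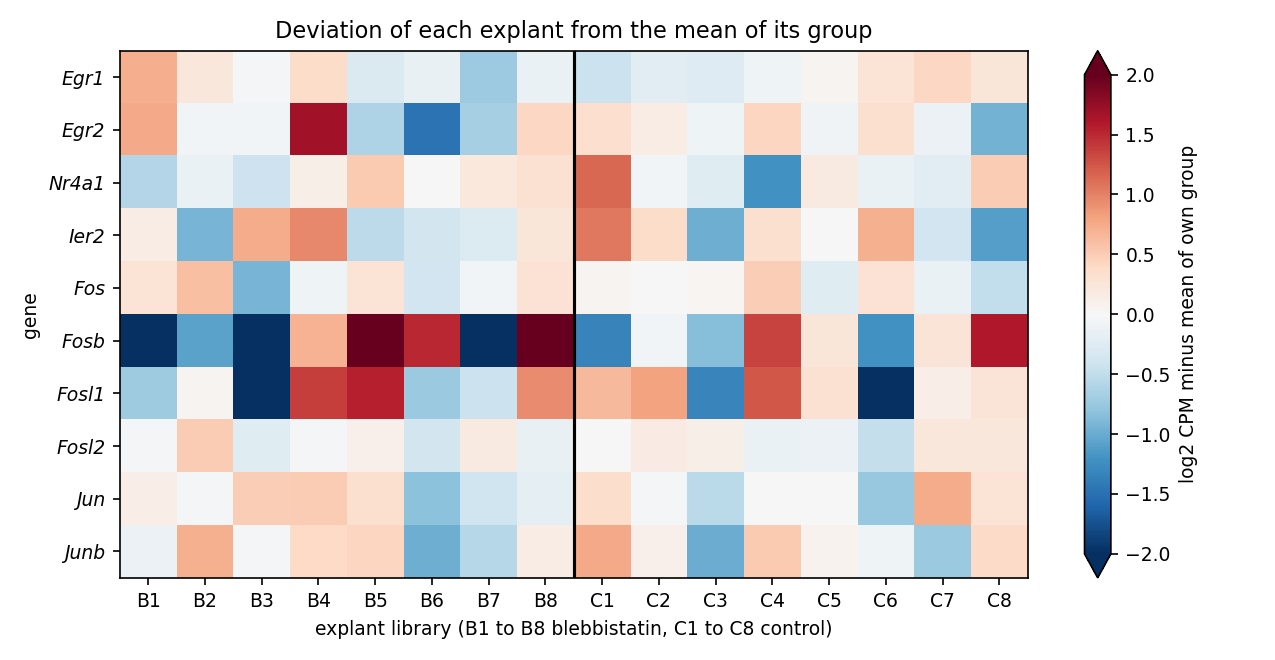
Log2 CPM of each gene (rows) in each explant (columns, B1 to B8 blebbistatin and C1 to C8 control) minus the mean of its own group, red above and blue below it, with colours capped at 2 log2 units. Fosb and Fosl1 carry the strongest colours, Fosl2 and Egr1 the palest, and no column is red or blue for all 10 genes.

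Among 9861 genes averaging at least 5 CPM, those whose deviations from the group means were most like those of Fosl1 had r of 0.90 to 0.92 over 16 libraries: Golim4, Cd109, Ubr4, Flnc and Peg3. For Fos they were Kctd20 (0.83), Atp5d, Ipo5, Gpatch4 and Mea1 (0.75 to 0.78), and for Egr1 Sh3rf3, Aig1, Gspt1, H2afv (0.81 to 0.82) and Syncrip (0.79). None of these 15 genes belongs to the immediate early lists. Each r is among the highest of all genes searched and is given as a description.

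Beyond the 10 genes, 55 of 59 other immediate early genes on a list were tested. By edgeR Nab2 rose and Bhlhe40 and Ptgs2 fell, 3 of 55 beside 0.606% of all genes, and 52 did not pass. At an unadjusted p under 0.05, 3 were higher and 14 lower, 30.9% beside 12.2% of all genes, and the median log2 fold change was -0.11. With DESeq2, 2 passed as higher and 5 as lower, beside 1.19% and 1.44% of all genes. With limma voom 1 and 5 passed, beside 0.217% and 0.504%. The edgeR count was 1 without blebbistatin 8, control 4, control 7 or control 8, and 5 without blebbistatin 5 or control 6.

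Bhlhe40, a transcriptional repressor that also belongs to the circadian clock, fell to 98.3 ± 18.5 CPM with blebbistatin, against 149 ± 17.1 CPM in control explants (log2 fold change -0.60, SE 0.12, edgeR adjusted p = 0.0198). All 8 blebbistatin libraries lay below the control median, and the call ended without control 7 (adjusted p = 0.0503) and without blebbistatin 1 and 8 (0.0687). Ptgs2, the inducible cyclooxygenase of prostaglandin synthesis, fell to 132 ± 73.8 CPM with blebbistatin, against 393 ± 104 CPM in control explants (-1.57, SE 0.35, edgeR adjusted p = 0.0464). This call ended without any 1 of blebbistatin 3, 4, 7 or 8 or control 1, 3, 4, 5, 7 or 8 (adjusted p from 0.0519 to 0.0941). Ereg, for the growth factor epiregulin, had 5.76 ± 4.35 CPM with blebbistatin and 17.8 ± 6.24 CPM in control explants (-1.63, SE 0.42, edgeR adjusted p = 0.0729), and both DESeq2 (adjusted p = 0.00348) and limma voom (-2.01, 0.0225) called it. The edgeR call of Ereg was gained without blebbistatin 4 (adjusted p = 0.0475), blebbistatin 5 (0.0365) or control 6 (0.048) and with a replicate block (0.0481). Dusp1, a phosphatase of MAP kinases named after its values had been seen, had a log2 fold change of -0.90 (SE 0.28, edgeR adjusted p = 0.167, and 0.0487 without blebbistatin 1).

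The factors that act on these promoters were examined next. The list held 13 genes for SRF, the TCFs, the MRTF family, other ETS factors, CREB and coactivators. Of these, Ets2 rose and 12 did not pass edgeR, beside 0.255% of all genes called higher. The TCFs on the list were among the 12. At an unadjusted p under 0.05 the list held Ets2 alone, 7.69% beside 12.2% of all genes. The median log2 fold change was -0.02. Srf, on that list and chosen after its values had been seen, had 41.4 ± 8.62 CPM with blebbistatin and 42.5 ± 14.5 CPM in control explants (-0.03, SE 0.20, edgeR adjusted p = 0.96). Ets2, an ETS factor that ERK phosphorylates but that is not a TCF, had 58.7 ± 13.5 CPM with blebbistatin against 34.5 ± 7.80 CPM in control explants (0.77, SE 0.17, edgeR adjusted p = 0.0464, DESeq2 adjusted p = 0.00355). Its call was narrow: it ended without any 1 of blebbistatin 1, 3, 6, 7 or 8 or control 1, 2, 3, 4, 5, 7 or 8 (adjusted p from 0.0574 to 0.0996), in limma voom (0.0555) and in edgeR without TMM (0.0702). The other 3 of smallest p were Myocd (-1.07, edgeR adjusted p = 0.521), Crebbp (0.14, 0.585) and Mrtfa (-0.25, 0.596), coactivators of transcription.

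Of the kinase cascades that reach these genes, 0 of 22 genes of the ERK pathway and its receptors passed edgeR (4, or 18.2%, at an unadjusted p under 0.05, 1 higher by DESeq2), and so did 0 of 19 genes of the JNK, p38 and ERK5 pathways (4, or 21.1%, at an unadjusted p under 0.05, 0 by DESeq2). Over all tested genes the share at an unadjusted p under 0.05 was 12.2%, and 1.19% were higher by DESeq2. The smallest p in these lists belonged to Pdgfra, a receptor of platelet-derived growth factor, at 221 ± 58.7 CPM with blebbistatin and 125 ± 39.2 CPM in control explants (log2 fold change 0.82, SE 0.19, edgeR adjusted p = 0.0555), and both DESeq2 (adjusted p = 0.00508) and limma voom (0.0462) called it. The edgeR call of Pdgfra was gained without blebbistatin 5 (adjusted p = 0.0377) or control 6 (0.0344) and with a replicate block (0.0492). Map2k1, the kinase that activates ERK, had a log2 fold change of -0.40 (SE 0.12, edgeR adjusted p = 0.143), and Mapk12, a p38 kinase, one of 0.90 (SE 0.29, edgeR adjusted p = 0.167).

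The list of ERK feedback genes held 17 genes, feedback regulators together with other genes listed as outputs of ERK signalling. Of these, 0 passed edgeR, with 3 higher and 2 lower at an unadjusted p under 0.05 and 1 lower by DESeq2. The median log2 fold change was -0.03. Over all genes 6.21% were higher and 5.98% lower at that unadjusted p, and 1.44% lower by DESeq2. Spry1, an inhibitor of receptor tyrosine kinase signalling, had 22.6 ± 7.59 CPM with blebbistatin and 40.4 ± 9.29 CPM in control explants (-0.84, SE 0.20, edgeR adjusted p = 0.0593, DESeq2 adjusted p = 0.0059). Its edgeR call was gained without blebbistatin 1 (adjusted p = 0.02), control 6 (0.0226) or blebbistatin 1 and 8 together (0.0314), and without TMM (0.0487). Its paralog Spry4 had 123 ± 21.3 CPM with blebbistatin and 93.8 ± 21.1 CPM in control explants (0.40, SE 0.14, edgeR adjusted p = 0.223). Phlda1 (0.59) and the ETS factor Etv1 (0.79) had edgeR adjusted p-values of 0.184 and 0.258.

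Other bZIP genes that can pair with FOS or JUN proteins were tested for 18 of 22, and 0 passed edgeR or DESeq2 (3 at an unadjusted p under 0.05, 16.7% beside 12.2% of all genes), with Atf7 (0.29, edgeR adjusted p = 0.282) leading. Of 27 genes known as targets of AP-1, Lox fell and 26 did not pass edgeR, beside 0.351% of all genes called lower. At an unadjusted p under 0.05, 10 were lower (37.0%, beside 5.98% of all genes) and 0 higher, beside 6.21%. This list, like the others, was chosen with earlier results of these data known, so its direction is not independent evidence. DESeq2 called 4 lower, beside 1.44% of all genes, and the median log2 fold change was -0.29. Lox, the enzyme that crosslinks collagen, fell to 745 ± 367 CPM with blebbistatin, against 1920 ± 485 CPM in control explants (-1.37, SE 0.27, edgeR adjusted p = 0.0198), and the call ended without control 7 (adjusted p = 0.0503). Itga5 and Krt18, also named by their p, stand also on the MRTF and the epicardial list (-0.59 and -1.41, edgeR adjusted p = 0.106 and 0.157, DESeq2 adjusted p = 0.0326 and 0.0268). Without blebbistatin 1, edgeR called Itga5 (-0.72, adjusted p = 0.0353), and with a replicate block it called Krt18 (-1.68, adjusted p = 0.0458). The edgeR count of AP-1 targets was 0 without control 7 and 2 without blebbistatin 1 or 5.

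The actin-MRTF arm of SRF was set beside these genes on the same scale. Of 34 such targets tested, 9 fell, 0 rose and 25 did not pass edgeR, beside 0 of the 10 immediate early genes and 0.351% of all genes called lower. At an unadjusted p under 0.05, 23 of 34 were lower, beside 5.98% of all genes, and 0 higher, and DESeq2 called 16 lower, beside 1.44% of all genes. The median log2 fold change was -0.61, against -0.20 for the 10 immediate early genes and 0.04 for all tested genes. The 4 of smallest p were Ccn2 (-1.77), Acta2 (-1.22), Fhl1 (-1.70) and Tagln (-1.72), with edgeR adjusted p-values of 0.00283 to 0.0112, genes for a matrix protein, smooth muscle actin, a LIM protein and an actin-binding protein. The list was chosen with earlier results of these data known, so its direction is not independent evidence. Without control 6 the count was 14. Ccn2, placed here among the MRTF targets, is also known as an immediate early gene, so the lists are not fully separate classes. The difference between the arms was not tested.

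**Figure D4:**
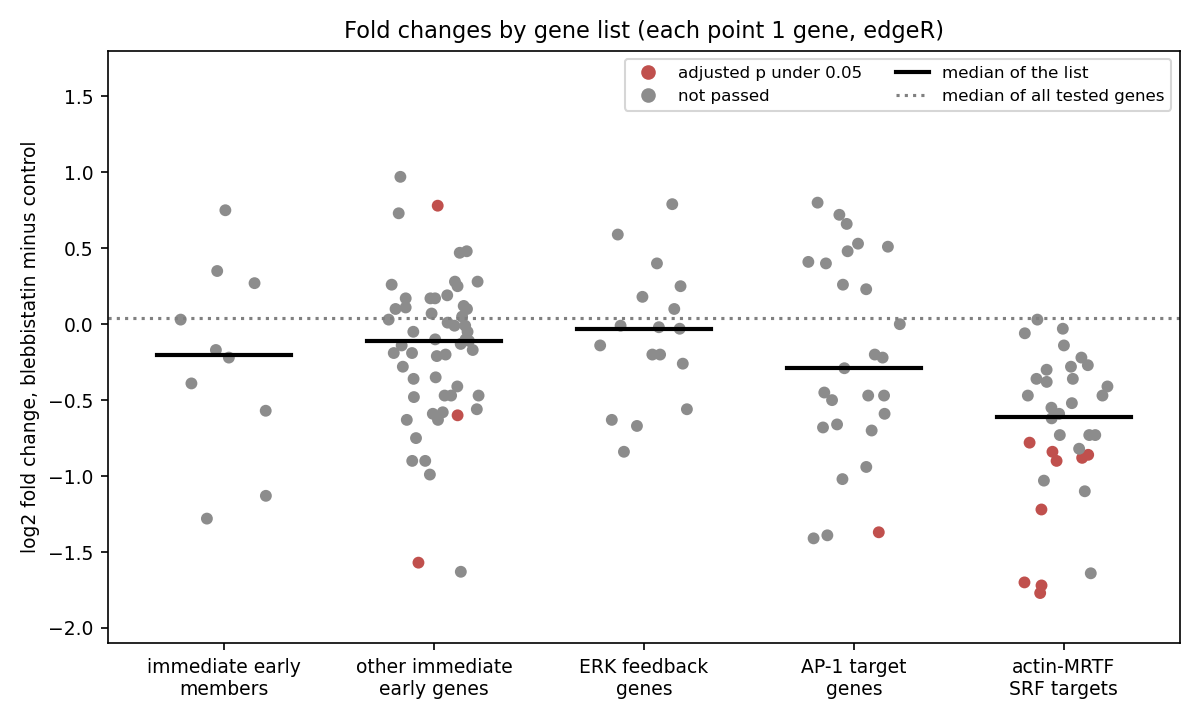
Log2 fold change of each gene, blebbistatin minus control (edgeR), for the 10 immediate early genes and 4 other lists, red where the adjusted p is under 0.05; black bars are list medians and the dotted line is the median of all tested genes at 0.04. The immediate early genes spread on both sides of the line around a median of -0.20, and 33 of 34 actin-MRTF targets lie below 0 with a median of -0.61.

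Genes of the heat shock response, which often move with immediate early genes when tissue is handled, were read beside them. Of 15, 0 passed edgeR or DESeq2 and 3 (20.0%) were lower at an unadjusted p under 0.05, beside 5.98% of all genes. Summed, they came to 3930 ± 649 CPM with blebbistatin against 4690 ± 551 CPM in control explants (SD, n = 8 each, exact permutation test, p = 0.0193, adjusted p = 0.0708). The genes of smallest p were Cryab (log2 fold change -0.71, edgeR adjusted p = 0.225) and Hsp90ab1 (-0.28, 0.325), both chaperones. Cryab was called with a replicate block (-0.77, edgeR adjusted p = 0.0386). The part of this list in the levels of the immediate early genes was not tested.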

How the data were processed

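The authors deposited raw gene counts for every explant in a single table. The submitters' processing notes name edgeR, HTSeq (0.6.1p1), SAMtools (1.3), Bowtie2 (2.2.6.0) and TopHat2 (2.1.0), and build GRCm38 (mm10). The role of each, the annotation release and the strand setting were not given in the sources used here. Each of the 15805 genes exceeded 1 CPM in at least 4 of 16 libraries, as checked on the table. RNA was amplified with an Ovation kit and made into Nextera XT libraries, per the labels' protocols. Gene symbols were restored by Ensembl identifier (15665 matched) and positions are those of GENCODE M21.

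Genes were filtered with filterByExpr, which left 15675, scaled by TMM and tested with edgeR 4.0.16 (R 4.3.3, robust quasi-likelihood fit, group as the only term, all 16 libraries), with p-values adjusted by Benjamini-Hochberg across the whole tested table and called under 0.05. The code was tested on simulated data. Log2 CPM used a prior count of 2. Exact permutation tests were 2-sided over 12870 splits, and permutation tests of correlations over both groups drew 100000 shuffles within groups, while those within 1 group were exact. Alternatives were DESeq2 1.42.0, limma voom 3.58.1, other scalings, no filter, a replicate block, a covariate for Y-linked genes and leaving out each library; leaving out blebbistatin 1 and 8, with the fewest genes detected, was added after the data were seen. Genes named beside the 10 were the 4 of smallest p of each list, except where stated, and up to 5 most alike to Fos, Egr1 and Fosl1. A gene that this rule names is not reported here. The members and lists were chosen with earlier results of these data known. Libraries were compared for repeats, and controls 7 and 8, the most similar, still had a chi-square per degree of freedom of 48.5.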

Additional observations from a re-analysis of the deposited data

Results flagged for a closer look

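In 140 groups of 8 libraries, for the genes named and the library measures, 15 single libraries stood farther from the rest of their group than Dixon's 95% critical value allows, and chance flags about 1 in 20 groups. Among the 10 immediate early genes there was 1 such value, Egr2 at 19.0 CPM in blebbistatin 4. Of the other genes, Nab2 was low in blebbistatin 7 (46.7 CPM) and Atf7 low in blebbistatin 2 (137 CPM). High values in blebbistatin 1 were those of Sos1 (104 CPM), Phlda1 (120 CPM) and Maf (385 CPM). Krt19 (26.4 CPM) and Msln (610 CPM) were high in blebbistatin 2, and Actn2 in blebbistatin 8 (7.59 CPM). Ttn was high in blebbistatin 6 (97.0 CPM) and in control 6 (42.3 CPM). The total counts of blebbistatin 2 (89620195) and control 5 (60321622) stood above those of their groups, as did the summed macrophage markers of blebbistatin 3 (3670 CPM) and the single red cell marker analysed, Alas2, in control 7 (5.76 CPM).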

How the results depend on the processing

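Of all tested genes, 95 passed in edgeR, 412 in DESeq2, 177 with a replicate block and 21 with the Y-linked covariate, and 44 to 206 as single libraries were left out. Of the 10 immediate early genes 0 passed in edgeR, 2 in DESeq2 and 1 without TMM (Egr1, adjusted p = 0.0463), and 0 to 2 as single libraries were left out; no other alternative called any. With the Y-linked covariate Egr1 and Nr4a1 had log2 fold changes of 0.69 and -0.92 (adjusted p = 0.24 and 0.253). Fos reversed with the replicate block (-0.0018), the Y-linked covariate (-0.02) and without blebbistatin 1 and 8 (-0.05), and ran from -0.07 to 0.13 as single libraries were left out. In the same way Egr2 ran from -0.11 to 0.40, Ier2 from -0.34 to 0.0049, Prdx2 from -0.13 to 0.04, Jund from -0.23 to 0.53 and Srf from -0.13 to 0.06. Jund was at -0.46 without blebbistatin 1 and 8, and Srf at 0.02 in limma voom, 0.02 with the replicate block and 0.13 with the Y-linked covariate. The other 7 immediate early genes kept their sign in all 25 alternatives, though Fosb ran from -3.66 to -0.95 and Fosl1 from -0.50 to -0.03. With blebbistatin 3 and 2 left out, the farthest from the median of Fos, its r was -0.04 with Fosb, -0.24 with Fosl2, -0.01 with Egr1 and 0.43 with Ier2, and no relation passed. The Y-linked covariate ended the calls of Nab2 (0.135), Bhlhe40 (0.12), Ptgs2 (0.113), Ets2 (0.204), Lox (0.104) and Ttn (0.202). The cause of these changes was not tested. Whether replicate numbers mark paired explants is not stated in the labels and could not be settled from the counts. Same-numbered libraries correlated above 0.1 in 4 of 8 pairs (0.00 to 0.34). Of 16 libraries, 3 correlated best with their own number. Depth limits Fosb most, at 0 to 212 counts a library.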
